A study of Mus musculus with 9 samples.

Results

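A set of 10 genes of endothelin, nitric oxide and cGMP signalling was followed in whole aorta from wild-type and Apoe-knockout mice. They were chosen by symbol for their place in the pathway: Edn1, Ece1, Ednra and Ednrb of the endothelin arm, Nos3 of nitric oxide synthesis, and Gucy1a1, Gucy1b1, Prkg1, Pde5a and Npr3 of cGMP formation, action and removal. The choice was made with earlier results of these data known. All 10 were found among the 33293 gene identifiers of the deposited table, and all 10 were among the 13383 genes tested, which reached 1 FPKM in 4 or more libraries. FPKM is a read or fragment count scaled to exon length and to library depth.

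Endothelin-1 is a constrictor peptide that endothelial cells release after an endothelin-converting enzyme has cut its precursor. It acts on the A receptor of smooth muscle, which couples to calcium release and contraction, and on the B receptor, which in endothelium leads to release of nitric oxide and clears the peptide. Nitric oxide made by the endothelial synthase diffuses into smooth muscle, binds the heterodimeric soluble guanylate cyclase and raises cGMP. That messenger relaxes the muscle through its protein kinase, and phosphodiesterase 5 breaks it down. Natriuretic peptides raise cGMP through membrane receptors, and their clearance receptor removes them.

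The wild-type group (WT, 5 libraries) came from C57BL/6J mice and the knockout group (Apoe_KO, 4 libraries) from mice that lack Apoe, the gene of apolipoprotein E. All mice were males of 7 to 8 weeks on normal chow, and the labels name no other treatment. The knockout's strain background and allele were not given in the sources used here. Nor do the labels say that libraries came from separate animals, so p-values measure only the spread between these samples, which may be technical. The comparison asks which of these transcripts differ between aortas of the genotypes.

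The libraries held 17.0 to 19.8 M reads or fragments, a depth fitted to the deposited values. Apoe was at 513 to 643 FPKM in WT against 5.64 to 6.55 in Apoe_KO. The tissue carried its defining markers. The smooth muscle gene Acta2 was at 3683 to 4669 FPKM over all libraries, and the endothelial gene Pecam1 at 62.0 to 144 FPKM, whereas Tagln, another smooth muscle marker, was at only 6.06 to 10.2 FPKM. Of 15 smooth muscle markers 3 were higher in Apoe_KO and 0 lower (summed level 6909 to 8182 FPKM in WT, 7203 to 8902 in Apoe_KO). Of 15 endothelial markers 0 were higher and 1, Kdr, was lower (336 to 541 FPKM in WT, 318 to 502 in Apoe_KO). No marker of either list was at 0. WT 2 and Apoe_KO 4 differed from the other libraries in 10 markers of T and B lymphocytes that summed to 415 and 403 FPKM there and to at most 39.2 FPKM in the others. White adipocyte markers were lower in 3 of 10 and higher in 0 (2878 to 4222 FPKM in WT, 1864 to 3173 in Apoe_KO), and macrophage markers higher in 3 of 10 and lower in 0 (225 to 305 in WT, 317 to 451 in Apoe_KO). Heat shock genes were higher in 8 of 10 and lower in 0 (652 to 820 FPKM in WT, 1453 to 1977 in Apoe_KO). Immediate early genes were higher in 2 of 10 and lower in 0 (165 to 593 FPKM in WT, 237 to 397 in Apoe_KO), and of 6 pericyte markers 1, Abcc9, was higher and 0 lower (357 to 452 and 462 to 550 FPKM). None was called by limma among 10 fibroblast, 7 brown adipocyte, 5 striated muscle, 5 erythroid and 4 mesothelial markers tested. Of these, 5 of 31 had an unadjusted p under 0.05 (limma), where 24.6% of all tested genes did. The part of cell makeup and heat shock in the differences below was not tested. In whole tissue, fewer cells of a type and less RNA per cell cannot be told apart.

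Of the 10 genes, 3 were called different at an adjusted p of 0.05 by limma, against 7.35% of the 13383 tested genes. Because the genes were chosen with earlier results of these data known, such shares describe the set and do not test it. Pde5a was called higher, where 3.43% of all tested genes were, and Edn1 and Ednra were called lower, where 3.92% were. Among all genes called in either direction, the share called higher went from 46.7% to 70.1% with median centring of the libraries. With quantile normalization it went to 66.9%. The median log2 fold change (Apoe_KO minus WT, of FPKM + 1, a scale that understates changes of low genes) was -0.056 over the members and -0.069 over all tested genes. The median absolute value was 0.24 over the members and 0.14 over all. In 5 of the 10 genes no Apoe_KO library overlapped the WT range, against 12.4% of all tested genes. Of these 4 were lower, against 7.48% of all, and 1 higher, against 4.9%. A two-sided exact permutation test passed 0.05 for the same 5 genes, as it must where groups do not overlap. It passed for 22.9% of all tested genes, or 21.4% with median centring.

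**Figure D1:**
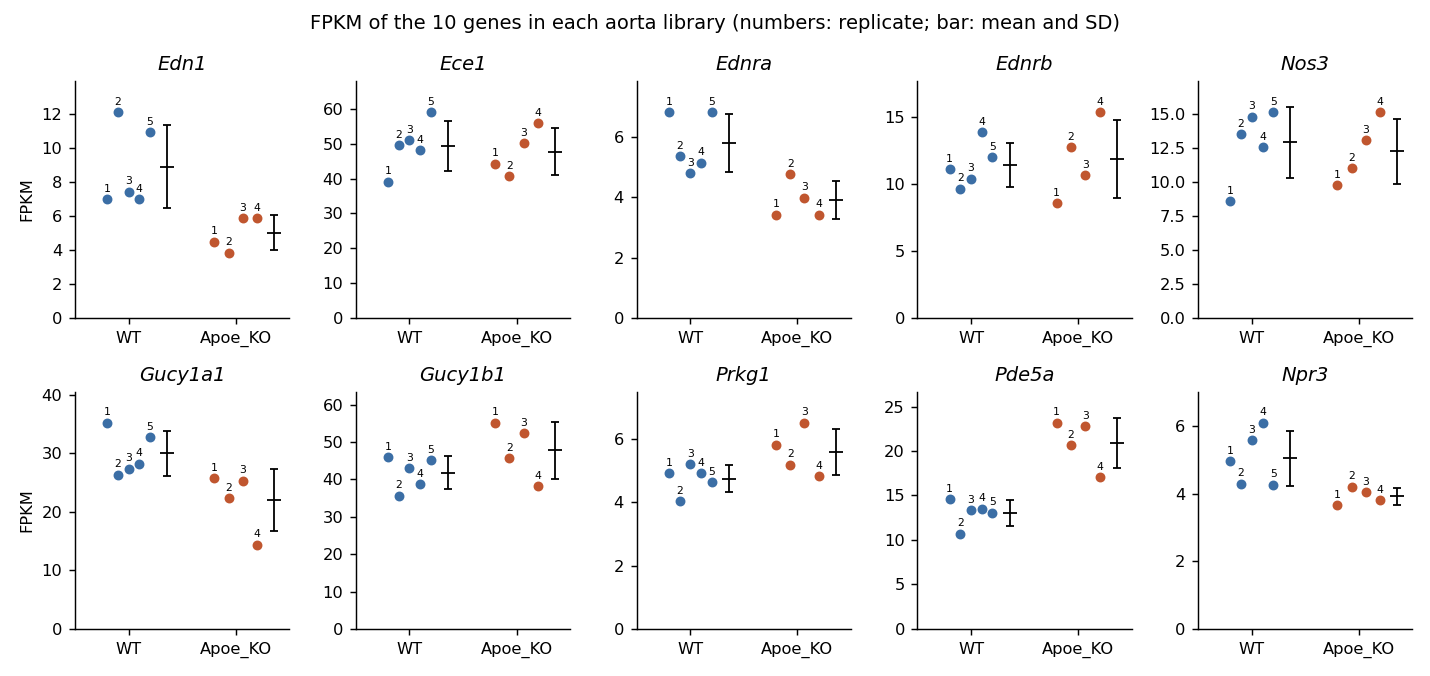
FPKM (y axis, from 0) of each of the 10 genes in the 5 WT and 4 Apoe_KO libraries (x axis). Points are libraries, numbered by replicate, and the bar beside each group is its mean and SD. Pde5a lies above the WT range in each Apoe_KO library, and Edn1, Ednra, Gucy1a1 and Npr3 lie below it.

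The DNA upstream of the genes on which the results turn is shown first, since the called genes and the cyclase subunits are compared below. RefSeq start sites on GRCm38.p6 were listed for 9 of the 10 genes, and the 250 bases before the most upstream start were searched. Printed, 5′ to 3′ on the gene's own strand, is the stretch of that window before the first base of any GENCODE exon, and capitals mark motif matches. It is chr13:42301226-42301475 (plus strand) for Edn1, chr8:77724465-77724702 (minus) for Ednra, chr3:122728908-122728946 (plus) for Pde5a, chr3:82145790-82145900 (minus) for Gucy1a1 and chr3:82074712-82074961 (minus) for Gucy1b1.
Edn1: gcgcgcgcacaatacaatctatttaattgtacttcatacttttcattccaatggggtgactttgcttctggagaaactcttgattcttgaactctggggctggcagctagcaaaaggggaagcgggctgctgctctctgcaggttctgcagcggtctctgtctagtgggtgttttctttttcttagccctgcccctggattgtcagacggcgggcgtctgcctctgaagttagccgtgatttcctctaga
Ednra: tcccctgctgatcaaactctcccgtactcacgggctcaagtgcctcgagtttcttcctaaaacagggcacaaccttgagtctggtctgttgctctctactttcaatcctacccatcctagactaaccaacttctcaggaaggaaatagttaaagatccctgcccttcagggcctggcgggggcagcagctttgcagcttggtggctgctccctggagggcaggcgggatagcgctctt
Pde5a: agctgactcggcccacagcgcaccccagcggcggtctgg
Gucy1a1: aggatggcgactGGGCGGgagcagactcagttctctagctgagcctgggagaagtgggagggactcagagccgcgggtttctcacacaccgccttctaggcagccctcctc
Gucy1b1: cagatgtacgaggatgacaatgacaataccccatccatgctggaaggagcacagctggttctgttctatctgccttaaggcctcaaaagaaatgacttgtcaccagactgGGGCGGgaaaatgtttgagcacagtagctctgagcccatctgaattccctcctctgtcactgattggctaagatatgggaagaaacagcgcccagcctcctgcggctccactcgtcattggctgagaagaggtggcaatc

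The motifs searched on both strands were the GATA factor motif, spelled AGATAA, the AP-1 motif (TGANTCA), the heat shock element (GAANNTTC), the GC box (GGGCGG), the TATA box, spelled TATAAA, and the CArG box. The capitals upstream of Gucy1a1 and Gucy1b1 are each 1 match to the GC box, and the GC box of Pde5a lies further in, where GENCODE has an exon. Over all 9 genes 4 windows held a GC box, where 32.7% of 32851 RefSeq windows of this length did, and that of Prkg1 also held the GATA letters, found in 9.99% of windows. No member's window matched AP-1 (6.75% of windows), the heat shock element (6.69%), the TATA box (12.4%) or the CArG box (1.47%). A match is a description of the letters and not a site.

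The peptide gene Edn1 (ENSMUSG00000021367, GRCm38 chromosome 13, 42301476 to 42307990, plus strand) had the lowest log2 fold change of the 10 genes as fitted. It was at 7.02, 12.1, 7.44, 6.99 and 10.9 FPKM in WT replicates 1 to 5 and at 4.50, 3.85, 5.88 and 5.88 FPKM in Apoe_KO replicates 1 to 4. Each Apoe_KO library lay below the lowest WT library, and WT 2 and WT 5 stood above the other WT libraries. The mean fell from 8.90 ± 2.44 FPKM (SD, n = 5) to 5.03 ± 1.02 FPKM (SD, n = 4), a WT level 1.77 times that of Apoe_KO. The log2 fold change was -0.70 (SE 0.18, limma adjusted p = 0.0464), and the two-sided exact permutation p was 0.0159, the lowest value that 126 splits allow. The call was lost when any 1 of the 9 libraries was left out (limma adjusted p = 0.0543 to 0.106), while the fold change stayed between -0.77 and -0.59. These values rested on 153 to 441 reads per library, the fewest of the 10 genes. Gm47118 overlaps 35 of its 2139 exonic bases on the other strand, and strandedness was not given in the sources used here.

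Ece1 (ENSMUSG00000057530, chromosome 4, 137862237 to 137965229, plus strand) encodes an enzyme that cuts big endothelin to the active peptide. It was at 39.1, 49.7, 51.0, 48.1 and 59.1 FPKM in WT and at 44.3, 40.6, 50.1 and 55.8 FPKM in Apoe_KO, and the groups overlapped throughout. Its log2 fold change was -0.048, with a 95% confidence interval from -0.33 to 0.23 (limma adjusted p = 0.845). In WT it had the highest level per length of the 10 genes, though its range overlapped that of Gucy1b1. A difference in the converting enzyme was not detected, and the interval allows a change of either sign.

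The A receptor gene Ednra (ENSMUSG00000031616, chromosome 8, 77663031 to 77724464, minus strand), the main endothelin receptor of smooth muscle, was at 6.83, 5.36, 4.80, 5.16 and 6.83 FPKM in WT and at 3.43, 4.77, 3.99 and 3.43 FPKM in Apoe_KO. The groups did not overlap, but the highest Apoe_KO library, replicate 2, lay close under the lowest WT library, replicate 3. The mean fell from 5.79 ± 0.966 FPKM (SD, n = 5) to 3.91 ± 0.634 FPKM (SD, n = 4). The log2 fold change was -0.47 (SE 0.12, limma adjusted p = 0.0476; two-sided exact permutation p = 0.0159). The call held without WT 3 (adjusted p = 0.0431) or Apoe_KO 2 (0.0274) and was lost without any other single library (limma adjusted p = 0.0751 to 0.1098). A gene on the other strand overlaps 91 of its 5476 exonic bases.

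Ednrb (ENSMUSG00000022122, chromosome 14, 103814625 to 103844402, minus strand) encodes the B receptor, found on endothelium, some smooth muscle and glia. It was at 11.1, 9.66, 10.4, 13.9 and 12.0 FPKM in WT and at 8.57, 12.8, 10.7 and 15.4 FPKM in Apoe_KO. The Apoe_KO libraries held both the lowest and the highest of the 9 values. Its log2 fold change was 0.031, with a 95% interval from -0.31 to 0.37 (limma adjusted p = 0.922), and its sign changed when Apoe_KO 4 was left out. The Ednra to Ednrb ratio within a library was 0.514 ± 0.0976 in WT (SD, n = 5) and 0.343 ± 0.0808 in Apoe_KO (SD, n = 4), and the groups overlapped (two-sided exact permutation p = 0.0635). A difference between the receptors in their response to genotype was not shown at the threshold of 0.05. This ratio and 2 others below were chosen after the values were seen.

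Nos3 (ENSMUSG00000028978, chromosome 5, 24364810 to 24384474, plus strand), the endothelial nitric oxide synthase gene, was at 8.62, 13.5, 14.8, 12.6 and 15.1 FPKM in WT and at 9.81, 11.02, 13.1 and 15.2 FPKM in Apoe_KO. The groups covered nearly the same range, with WT 1 the lowest library. Its log2 fold change was -0.065, with a 95% interval from -0.44 to 0.31 (limma adjusted p = 0.844). Gm15587 and Atg9b, on the other strand, overlap 1040 and 294 of its 4132 exonic bases, so its value is uncertain to that extent. The 15 endothelial markers had a median log2 fold change of -0.25 and ran from -0.58 (Kdr) to 0.40 (Sox17, not called). The Nos3 value lies within that range, and its interval includes their median, so a difference from the markers was not shown. Edn1, the other gene of the set known mainly from endothelium, was lower relative to Nos3. Their ratio was 0.815, 0.897, 0.502, 0.555 and 0.721 in WT and 0.459, 0.350, 0.449 and 0.388 in Apoe_KO, with no overlap. The ratio fell by 0.74 on the log2 scale (two-sided exact permutation p = 0.0159, and 0.0238 after Benjamini-Hochberg adjustment over the 3 ratios compared). Groups without overlap always give this lowest permutation p. The adjustment does not cover the choice of ratios, made after the values were seen. A ratio within a library does not depend on its scaling, and it shows an unequal change, not which transcript changed.

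Soluble guanylate cyclase, the receptor for nitric oxide, is a dimer of an alpha and a beta subunit, whose genes lie 17.7 kb apart on chromosome 3. The alpha gene Gucy1a1 (ENSMUSG00000033910, 82092427 to 82145789, minus strand) was at 35.2, 26.3, 27.4, 28.2 and 32.8 FPKM in WT and at 25.8, 22.3, 25.3 and 14.4 FPKM in Apoe_KO. The groups did not overlap, although Apoe_KO 1 lay just under WT 2, and Apoe_KO 4 was the lowest of the libraries. The means were 29.98 ± 3.81 FPKM (SD, n = 5) and 21.95 ± 5.27 FPKM (SD, n = 4). The log2 fold change of -0.46 (SE 0.16) was not called (limma adjusted p = 0.118), with a two-sided exact permutation p of 0.0159, and no alternative processing called it.

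The beta gene Gucy1b1 (ENSMUSG00000028005, 82032006 to 82074689, minus strand) went the other way in its mean. It was at 46.0, 35.7, 43.1, 38.8 and 45.1 FPKM in WT and at 55.2, 45.6, 52.4 and 38.1 FPKM in Apoe_KO, and the groups overlapped. Its log2 fold change was 0.18 (SE 0.12, limma adjusted p = 0.366). The 2 subunit transcripts stood in another proportion in each genotype. The Gucy1a1 to Gucy1b1 ratio was 0.765, 0.738, 0.635, 0.727 and 0.726 in WT and 0.468, 0.488, 0.483 and 0.378 in Apoe_KO. Each Apoe_KO library lay well below the lowest WT library. The mean ratio was 0.718 ± 0.0490 in WT (SD, n = 5) and 0.454 ± 0.0516 in Apoe_KO (SD, n = 4). The ratio fell by 0.67 on the log2 scale (two-sided exact permutation p = 0.0159, and 0.0238 adjusted over the 3 ratios). Here too the absence of overlap fixes the permutation p at its lowest value. The ratio was chosen after the values were seen, which the adjustment does not cover. Gucy1a2, the other alpha subunit gene, was at 0.831 to 1.36 FPKM in WT and at 0.745 to 1.19 in Apoe_KO.

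**Figure D2:**
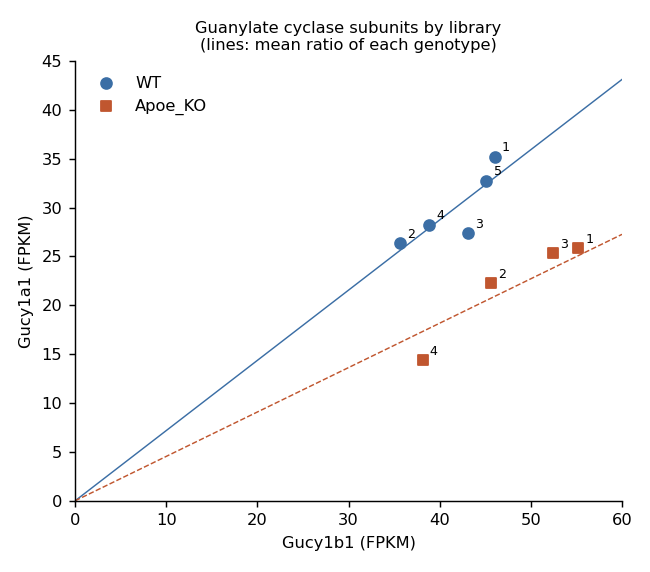
Gucy1a1 (y axis, FPKM) against Gucy1b1 (x axis, FPKM) in each library, with circles for the 5 WT and squares for the 4 Apoe_KO libraries, numbered by replicate. The solid and dashed lines have the mean ratio of WT (0.718) and of Apoe_KO (0.454) as slope, and the genotypes lie along separate lines.

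Prkg1 (ENSMUSG00000052920, chromosome 19, 30564489 to 31765033, minus strand), the gene of the cGMP-dependent protein kinase that relaxes smooth muscle, was at 4.92, 4.04, 5.19, 4.91 and 4.64 FPKM in WT and at 5.81, 5.19, 6.51 and 4.83 FPKM in Apoe_KO. The groups overlapped, and the log2 fold change of 0.19 (SE 0.093) was not called (limma adjusted p = 0.232).

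Pde5a (ENSMUSG00000053965, chromosome 3, 122728947 to 122859374, plus strand) encodes phosphodiesterase 5, which breaks down cGMP and is the target of sildenafil. It was at 14.6, 10.7, 13.3, 13.5 and 13.1 FPKM in WT and at 23.2, 20.6, 22.8 and 17.0 FPKM in Apoe_KO. Each Apoe_KO library lay above the highest WT library. The mean rose from 13.1 ± 1.43 FPKM (SD, n = 5) to 20.9 ± 2.82 FPKM (SD, n = 4), a ratio of 1.60. The log2 fold change was 0.64 (SE 0.11, limma adjusted p = 0.00909; two-sided exact permutation p = 0.0159). It was called in 17 of 18 alternative treatments of the data and lost with the replicate number as a block (adjusted p = 0.0638). A gene on the other strand overlaps 55 of its 9831 exonic bases.

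In both groups the library rich in lymphocyte transcripts had the lowest Pde5a, Gucy1a1, Gucy1b1 and Prkg1, namely WT 2 and Apoe_KO 4. Without these libraries Pde5a had a log2 fold change of 0.66 and was called (limma adjusted p = 0.0103), and Edn1 and Ednra, at -0.66 and -0.44, were not (0.0839 and 0.136). The smooth muscle markers called higher were Des, Synpo2 and Itga8, with log2 fold changes of 0.39, 0.44 and 0.48. All 15 markers had a median of 0.27 and ran from -0.075 (Smtn) to 0.64 (Myocd, not called). Relative to WT, their mean log2 level was 0.50, 0.11, 0.36 and 0.022 in Apoe_KO replicates 1 to 4. Pde5a had the same order over these Apoe_KO libraries but not over the WT libraries. The part of smooth muscle content in the Pde5a value was not tested.

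Npr3 (ENSMUSG00000022206, chromosome 15, 11839896 to 11907287, minus strand) encodes the clearance receptor of natriuretic peptides, which takes them up without making cGMP. It was at 4.96, 4.30, 5.59, 6.10 and 4.27 FPKM in WT and at 3.66, 4.21, 4.05 and 3.80 FPKM in Apoe_KO. The groups did not overlap, but Apoe_KO 2 lay just under WT 5. The log2 fold change of -0.29 (SE 0.10) was not called (limma adjusted p = 0.118; two-sided exact permutation p = 0.0159), and no alternative processing called it. Gm5144 overlaps 321 of its 9389 exonic bases on the other strand. Npr1, a cyclase receptor for natriuretic peptides, had a mean of 35.0 ± 3.65 FPKM over WT (SD, n = 5) and of 45.7 ± 9.18 FPKM over Apoe_KO (SD, n = 4). Npr1 was not called either (log2 fold change 0.36, limma adjusted p = 0.115).

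The level per exonic length in WT gave an order among the 10 genes. Ece1 and Gucy1b1, with medians of 49.7 and 43.1 FPKM, overlapped at the top, and Gucy1a1 (28.2) stood apart below them. Pde5a (13.3), Nos3 (13.5), Ednrb (11.1) and Edn1 (7.44) followed, each overlapping its neighbour by mean. Ednra (5.36), Npr3 (4.96) and Prkg1 (4.91) formed the lowest group, overlapping each other and standing below every WT library of Edn1. The spread also differed, with a coefficient of variation in WT from 9.21% for Prkg1 to 27.4% for Edn1. In Apoe_KO it ran from 6.33% for Npr3 to 24.6% for Ednrb.

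**Figure D3:**
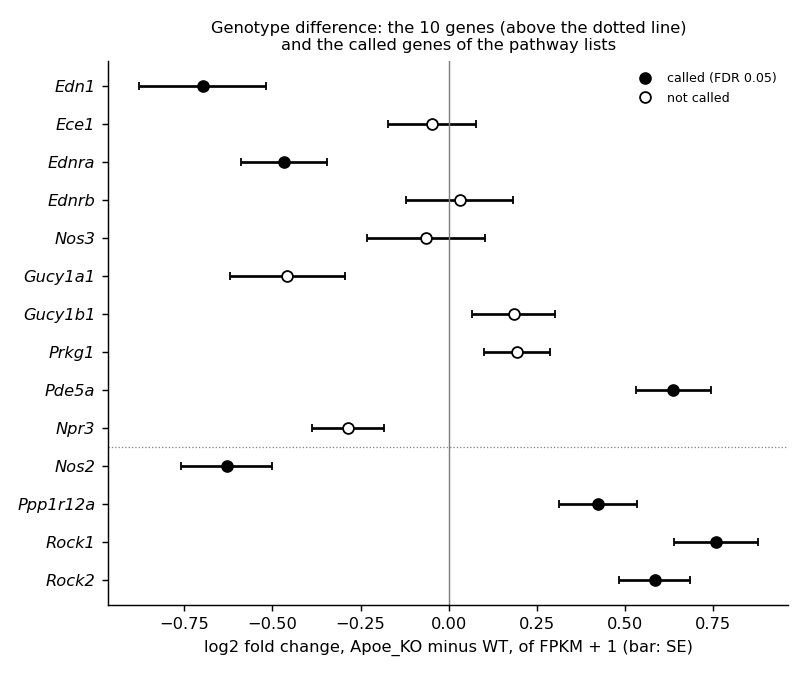
Log2 fold change (x axis, Apoe_KO minus WT, of FPKM + 1) with its SE for the 10 genes above the dotted line and for the 4 called genes of the pathway lists below it. Filled points were called at an adjusted p of 0.05 and open points were not; Edn1 has the lowest value (-0.70) and Rock1 the highest (0.76).

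Beyond the 10 genes, 60 other genes of the pathway were listed in 6 groups, and 45 passed the filter and were tested. Of these 3 were called higher and 1 lower, with a median log2 fold change of -0.023. Over all tested genes 7.35% were called, 3.43% higher and 3.92% lower. The calls higher were Rock1 and Rock2 of receptor coupling and Ppp1r12a of the cGMP effectors. Rock1 and Rock2 encode kinases that inhibit myosin phosphatase and sustain contraction, and Ppp1r12a encodes the targeting subunit of that phosphatase.

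Rock1 was at 44.3, 42.6, 52.5, 52.7 and 44.6 FPKM in WT and at 99.7, 71.2, 85.2 and 69.0 FPKM in Apoe_KO, with no overlap (log2 fold change 0.76, SE 0.12, limma adjusted p = 0.00670). Rock2 was at 20.4 to 21.8 FPKM in WT and at 25.3 to 36.8 FPKM in Apoe_KO (0.58, adjusted p = 0.0109). Ppp1r12a rose from 60.9 ± 3.11 FPKM (SD, n = 5) to 82.97 ± 14.9 FPKM (SD, n = 4), with a log2 fold change of 0.42 (limma adjusted p = 0.0465). Its call was lost under 11 of 18 alternatives. These were leaving out any 1 of the WT libraries or Apoe_KO 1 or 3 (limma adjusted p = 0.0595 to 0.1315), quantile normalization (0.0754), no filter (0.114), the replicate block (0.130), and leaving out WT 2 and Apoe_KO 4 together (0.0772). Rock2 lost its call without WT 2 and Apoe_KO 4 together (0.0576), and Rock1 kept it (0.0226). With the replicate number as a block both lost it (0.0735 for Rock1 and 0.0635 for Rock2). The other 11 of 13 tested genes of receptor coupling, among them Gnaq, Gna11 and Rhoa, were not called.

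The gene called lower was Nos2, the inducible nitric oxide synthase, at 1.08, 1.60, 1.38, 1.24 and 0.779 FPKM in WT and 0.279, 0.476, 0.409 and 0.531 FPKM in Apoe_KO (log2 fold change -0.63, limma adjusted p = 0.0198). It passed the filter only through WT libraries, so its call is no support for a difference in the list. The call was lost without WT 4 (adjusted p = 0.0526), Apoe_KO 1 (0.0503) or Apoe_KO 3 (0.0623), without WT 2 and Apoe_KO 4 together (0.0634), with quantile normalization (0.0846) and with the replicate block (0.0672). Of 13 nitric oxide genes tested beside Nos3, the other 12 were not called. Cav1, whose caveolin binds the endothelial synthase, came closest, at 302 to 378 FPKM in WT and 253 to 297 in Apoe_KO (log2 fold change -0.28, limma adjusted p = 0.0907). Its groups did not overlap, with Apoe_KO lower, as was so for 7.48% of all tested genes. Pts, of the synthesis of the cofactor tetrahydrobiopterin, had a log2 fold change of -0.30 (adjusted p = 0.138).

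No other gene was called among the 4 tested for cGMP formation, the 6 other phosphodiesterases tested or the 2 tested of the endothelin arm. At an unadjusted p under 0.05 (limma) 1, 1 and 0 of them passed, where 24.6% of all tested genes did. The phosphodiesterases nearest to a call were Pde3a, with means of 21.9 ± 2.51 FPKM over WT (SD, n = 5) and 26.6 ± 3.86 FPKM over Apoe_KO (SD, n = 4; log2 fold change 0.26, limma adjusted p = 0.175), and Pde3b (0.21, adjusted p = 0.318). In cGMP formation Npr2, the receptor of the C-type natriuretic peptide, had a log2 fold change of 0.12 (adjusted p = 0.461). Among effectors of cGMP, Itpr1, the calcium release channel, was at 0.25 (adjusted p = 0.123) and Rgs2, which turns off receptor signals to calcium, at 0.39 (0.253). Irag1, listed as Mrvi1 in the annotation and linking the kinase to that channel, was at 0.16 (0.407). In the endothelin arm Mme, for neprilysin, which degrades endothelin and natriuretic peptides, was at -0.25 (adjusted p = 0.225) and Edn3 at -0.11 (0.718). Of receptor coupling, Plcb4 was at 0.36 (0.0716) and Arhgef12, a guanine nucleotide exchange factor, at 0.26 (0.0926). Levels were below the filter for 15 genes, among them Edn2, at 0 to 0.0346 FPKM in WT and 0 to 0.0737 in Apoe_KO, and Nos1, at 0.136 to 0.257 and 0.0873 to 0.244.

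Genes outside these lists that varied most like a member between libraries were found from deviations from the genotype mean of log2(FPKM + 1) over the 9 libraries, as a description of these libraries, which share depth, cell makeup and scaling. For Nos3 they were Cd93, Icam2 and Tie1 (Pearson r = 0.974, 0.972 and 0.969), all known from endothelium. For Edn1 they were Pipox, Smarcb1 and Nup214 (0.970, 0.954 and 0.945), and for Ednra Fam171a2, Serp2 and Tmem255a (0.966, 0.954 and 0.943). For Pde5a they were Rcn2, Arl8b and E2f6 (0.983, 0.965 and 0.962), for Gucy1a1 Parp6, Zfyve9 and Rgs7 (0.974, 0.973 and 0.964), and for Gucy1b1 Cd200, Sspn and Fry (0.973, 0.957 and 0.956). The other members led with Itm2b for Ednrb (0.984), Cbfa2t3 for Ece1 (0.978), Wsb2 for Prkg1 (0.962) and Bphl for Npr3 (0.946). Each r was picked as among the highest over the tested genes outside the lists, and such picking from 9 libraries gives high values by itself.

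**Figure D4:**
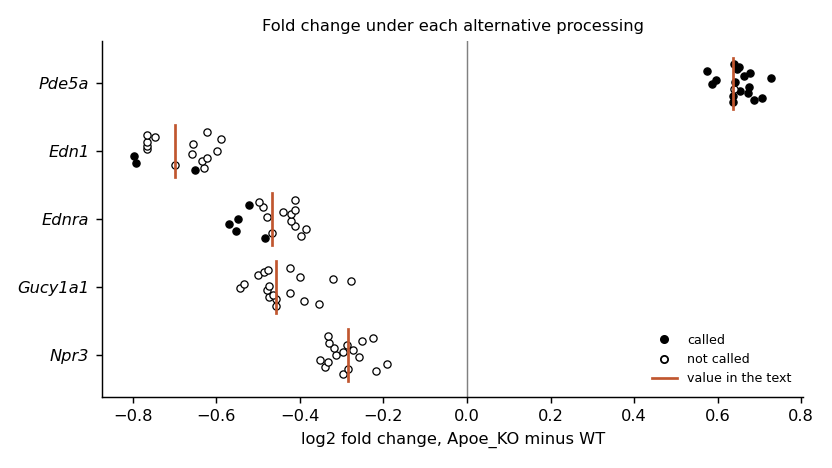
Log2 fold change (x axis) of the 5 genes whose groups did not overlap, under each alternative processing (points; filled where called at an adjusted p of 0.05) and as given in the text (vertical bars). The signs did not change; Pde5a was called under 17 alternatives, Ednra under 5, Edn1 under 3, and Gucy1a1 and Npr3 under 0.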

How the data were processed

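RNA was sequenced from aorta in 9 libraries. The labels' extraction protocol describes removal of ribosomal RNA, while their molecule field names polyA RNA. Per the submitters' processing notes the build was GRCm38 and limma was used, with no role given. Aligner, counter, annotation and strandedness were not given in the sources used here. In 1 table the authors deposited values that were taken to be FPKM (reads or fragments scaled to exon length and depth), a unit its header does not name. Values were multiplied by exon length in GENCODE mouse release 21 and by a depth fitted for each library to make reads whole. This gave whole reads (within 0.1 read) for 97.6% to 97.9% of values up to 50 reads, where chance gives 20% at a depth not fitted. Depths and read numbers in the text rest on this fit. Of 33293 identifiers 33240 were in that annotation, and the symbols, positions and overlaps came from it.

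Genes that reached 1 FPKM in 4 or more libraries entered limma 3.58.1 (R 4.3.3) as log2(FPKM + 1), in 1 fit over all 9 libraries with genotype alone and the robust trend option, with Benjamini-Hochberg adjustment over all 13383 tested genes. The method was also tried on 5 simulations built from the real means and depths, with 13554 to 13596 genes tested. The dispersion was 0.015 for all genes. Simulated shifts of 1.5-fold were called in 74.1% of cases and 2-fold shifts in 97.1%, with 7.48% false calls. The real spread differed by gene, with a coefficient of variation in WT from 9.21% for Prkg1 to 27.4% for Edn1. These rates therefore hold for the simulated data and do not give the power or error of the real comparison. Members and gene lists were chosen with earlier results of these data known. Pathway genes are named if called, with up to 2 uncalled genes of smallest p per list, and genes of like pattern are the 3 with the highest r, skipping those known only by a model number; genes named beyond this (Gucy1a2, Edn2, Nos1, Gnaq, Gna11, Rhoa, Irag1) were chosen after their values were seen. Alternatives were the replicate block, leaving out libraries, pseudocount, filter, scaling, weights and voom on the recovered reads. A single read of a 2 kb transcript equals 0.0253 to 0.0294 FPKM. Python 3.11.15, numpy 2.4.6, pandas 2.3.3 and matplotlib 3.10.9 were used. A result of 1 marker list is not reported here.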

Additional observations from a re-analysis of the deposited data

Results flagged for a closer look

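In 58 groups of libraries checked (the members, the named pathway genes and the 3 ratios, in each genotype), 1 held a library far from the rest, where chance flags about 1 in 20. The Ednra to Ednrb ratio was 0.223 in Apoe_KO 4 and 0.374 to 0.400 in the other Apoe_KO libraries. That library had the highest Ednrb and, with Apoe_KO 1, the lowest Ednra of its group, and it is 1 of the 2 rich in lymphocyte transcripts. Its part in the ratio was not tested.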

How the results depend on the processing

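Pde5a was called higher under each alternative except the replicate block. Edn1 and Ednra kept their sign throughout, and the 2 calls went to 0 with median centring, quantile normalization, no filter, a filter of 10 FPKM (where neither was tested), and without WT 2 and Apoe_KO 4. Leaving out 1 library gave 1 member called higher each time and 0 to 1 lower, 2 to 5 pathway genes higher and 0 to 1 lower, and 210 to 580 genes higher and 179 to 678 lower over all genes. With the replicate block 0 members and 0 pathway genes were called in either direction, and 121 genes higher and 62 lower over all. That fit in effect drops WT 5, whose number has no partner. The numbers are not shown to pair the libraries, since deviations of same-numbered libraries correlated from -0.27 to 0.26 and 1 of 4 Apoe_KO libraries correlated best with its own number. Over all genes, against 459 higher and 524 lower, there were 702 and 1055 with library weights, 247 and 198 with no filter, and 202 and 165 without WT 2 and Apoe_KO 4, while the number lower was 269 with median centring, 240 with quantile normalization and 220 with the filter of 10 FPKM. Pathway calls, 3 higher and 1 lower, were 7 and 3 with weights and 1 and 0 without WT 2 and Apoe_KO 4, and 0 were lower with the filter of 10 FPKM. The exact permutation p was under 0.05 for 5 members, for 3 with median centring (Edn1, Pde5a and Prkg1), and for 0 without WT 2 and Apoe_KO 4, where 0.0571 is the smallest it can give. Signs changed only among uncalled genes near 0: Ednrb was at -0.12 with weights, -0.012 without Apoe_KO 2, -0.096 without Apoe_KO 4, -0.022 without WT 2 and -0.15 without WT 2 and Apoe_KO 4. Ece1 was at 0.020 with median centring, 0.019 with the block, 0.025 without Apoe_KO 2 and 0.019 without WT 5. Nos3 was at 0.0033 with median centring and 0.029 without Apoe_KO 1, and Edn3 at 0.037 with quantile normalization and 0.027 without WT 2 and Apoe_KO 4. With 1 library left out these ran from -0.096 to 0.16 for Ednrb, -0.13 to 0.025 for Ece1 and -0.19 to 0.029 for Nos3. The causes were not tested. Each member had at least 153 reads per library.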
